A study of Homo sapiens with 6 samples.

Results

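The 10 mRNAs described here encode the core histone H4 from the histone gene clusters of chromosome 6: H4C1, H4C2, H4C3, H4C4, H4C5, H4C8, H4C9, H4C11, H4C12 and H4C13. They are 10 of 11290 protein-coding genes with a MANE Select transcript and at least 1 cDNA count in their exons. eIF4B was profiled by iCLIP, in which UV light cross-links a protein to the RNA it touches and the end of each cDNA marks the cross-linked base. DoHH-2 is a diffuse large B-cell lymphoma line and GM01953 served as the control B-cell line, neither with a drug or a gene change in the labels. There are 4 replicates for DoHH-2 and 2 for GM01953 in the labels, but the values are 1 pooled table per cell line, with 2033156 counts in DoHH-2 and 167197 in GM01953. Members were placed by position, as every count inside the exon of the MANE Select transcript (GENCODE release 44, GRCh38) on the same strand. This gave 3281 of 1179243 positions in DoHH-2 and 790 of 78474 in GM01953.

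Histone H4 packs DNA into nucleosomes together with H3, H2A and H2B, and its mRNAs are made in S phase, when new DNA has to be packed. Replication-dependent histone mRNAs have no poly(A) tail. They end in a short stem–loop that is bound by SLBP, and this element governs their processing, translation and decay. eIF4B is a translation initiation factor that stimulates the helicase eIF4A, which unwinds mRNA for the ribosome.

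All 10 genes are a single exon. Their mRNAs are 387 to 412 nt long and each has a coding sequence of 312 nt with the stop codon. The 10 coding sequences give 1 and the same protein of 103 residues, yet they agree at only 79.2 to 100% of their bases (median 84.0% over 45 pairs), and 103 of the 312 coding bases vary. The 3′ UTRs are 42 to 78 nt long. The 10 mRNAs therefore carry 1 protein, in coding sequences that differ except between H4C11 and H4C12, where they are identical. Outside this pair, counts on the coding sequences can be compared base by base.

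The 30 bases around the position with the most DoHH-2 counts are shown for each mRNA, because this is where eIF4B was seen most often. The capital marks the cross-linked base, and coordinates are GRCh38, read 5′ to 3′ on the strand of the gene.
H4C1, chr6:26022008-26022037, plus strand: cagcttgcatttctGaaccaaaggcccttt
H4C2, chr6:26026921-26026950, minus strand: cggcggttaatcttTtcgtcagttttcttc
H4C3, chr6:26104274-26104303, plus strand: ggtctcctgagaacTtcaaaaaacaaaaac
H4C4, chr6:26188746-26188775, minus strand: tcggcggctgagctTacctctacagtacac
H4C5, chr6:26204925-26204954, plus strand: agggacgcactcttTacggcttcggcggct
H4C8, chr6:26285151-26285180, minus strand: gcttgctgcactctTattttcattttcaac
H4C9, chr6:27139614-27139643, plus strand: cggctaaatggcatTttgaagcccagtcat
H4C11, chr6:27824431-27824460, plus strand: ggttgagcgtccctTtctatcaataaaagg
H4C12, chr6:27831212-27831241, minus strand: gcaccctctacggtTtcggtggttgagcgt
H4C13, chr6:27873173-27873202, minus strand: ctgagtgttttactTacttacacggttcct
In 9 of the 10 mRNAs the highest base was a U (T in the DNA). In H4C1 it was a G with 234 counts, level with a U that had 233. In 8 of the 10 it lay in the 3′ UTR, and in H4C5 and H4C12 it lay in the last codons.

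The stem–loop that ends these mRNAs has a stem of 6 base pairs and a loop of 4 bases, given here in capitals. It is shown because distances were measured from its first base. The first form is found in 7 members, H4C8 among them, the next in H4C9 and H4C12, and the last in H4C13.
H4C8, chr6:26285131-26285146, minus strand: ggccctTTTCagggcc
H4C9, chr6:27139654-27139669, plus strand: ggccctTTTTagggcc
H4C13, chr6:27873153-27873168, minus strand: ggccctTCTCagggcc
The first base of the stem–loop followed the stop codon by 22 nt in H4C11 and H4C12 and by up to 57 nt in H4C3. After the stem–loop 4 to 9 nt of annotated mRNA remain.

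The 10 mRNAs held 122400 counts in DoHH-2, which is 6.02% of all counts (Wilson 95% interval 5.99–6.05). In GM01953 they held 6021 counts, which is 3.60% (3.51–3.69). All intervals given here cover counting error only. As each cell line is 1 pooled table, no SD could be given and no test between the cell lines was possible. The share was 1.67 times higher in DoHH-2 (exact conditional interval 1.63–1.72). A count depends on how much of the mRNA a cell holds as well as on binding, and these cannot be told apart from the cross-link counts.

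H4C8 had the highest level in both cell lines, with 13338 CPM in DoHH-2 and 8026 in GM01953. CPM here are the counts of an mRNA per 1000000 counts of its cell line. Among protein-coding genes with a MANE Select transcript, the only genes ranked, H4C8 was 1 in DoHH-2 and 2 in GM01953 by total exon counts. By counts per nt, which allows genes of different length to be compared, it ranked 1 in both. H4C3 followed with 10773 CPM in DoHH-2 and 5993 in GM01953. H4C5 was next, with 10668 and 5299 CPM. Of the members' counts, these 3 genes held 57.8% in DoHH-2 and 53.6% in GM01953, and the intervals of H4C3 and H4C5 overlapped in DoHH-2 (10632–10916 and 10528–10810).

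H4C4 had 5994 CPM in DoHH-2 and 4486 in GM01953, and H4C2 had 4704 and 2799. H4C13 and H4C12 were level in DoHH-2, at 4324 (4235–4415) and 4288 (4200–4379), while in GM01953 H4C13 had 1890 and H4C12 3200. H4C9 had 2838 CPM in DoHH-2 and 1519 in GM01953. H4C1 had 2168 and 1274. The first 4 places were the same in both cell lines. In GM01953, H4C12 came before H4C2, and H4C9 was level with H4C11 (1344–1718 and 1349–1724).

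H4C11 had the lowest level in DoHH-2, with 1106 CPM (1061–1153), and had 1525 (1349–1724) in GM01953. It was the 1 member with a lower level in DoHH-2, at 0.73 times GM01953 (0.64–0.83). The other 9 were higher in DoHH-2, from 1.34 times in H4C4 and H4C12 to 2.29 times (2.04–2.57) in H4C13. Only H4C5 (2.01) and H4C13 exceeded 2-fold, which is 2 of 10 members against 6.1% of the 246 genes with at least 50 counts in both cell lines. The median ratio was 1.69 over the members and 0.97 over those 246 genes, which include the members. With the histone genes of chromosome 6 left out it was 0.83 over 200 genes.

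**Figure D1:**
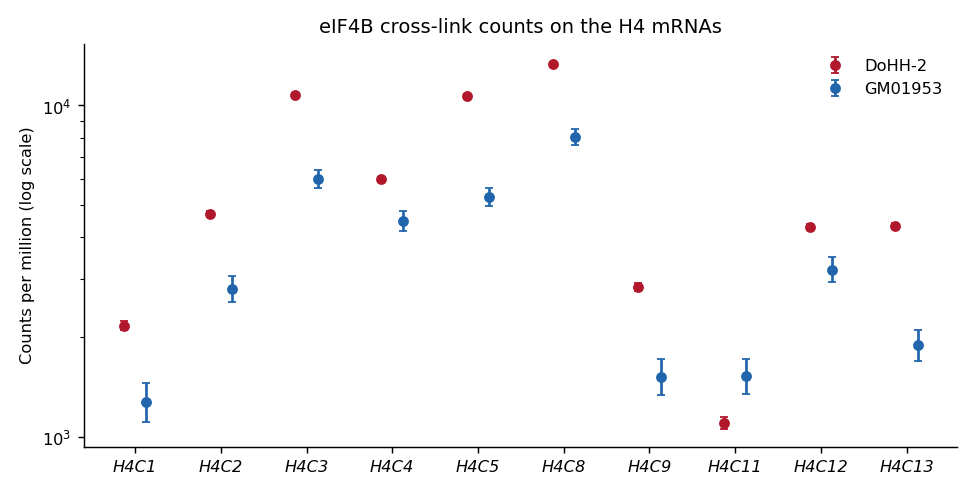
CPM (log scale) of each H4 mRNA in DoHH-2 (red) and GM01953 (blue), 1 pooled table per cell line; bars are Wilson 95% intervals for counting error. DoHH-2 lies above GM01953 for 9 of the 10 mRNAs, and H4C11 is the exception with 1106 against 1525.

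The coding sequences of H4C11 and H4C12 are identical, which limits what can be said of each. Only 14.9% of H4C11 bases and 14.5% of H4C12 bases are followed by 31 bases found once in the genome, against 84.9 to 100% in the other members. Counts at such bases made up 69.3% of the DoHH-2 counts of H4C11 and 71.4% of those of H4C12. On these bases alone the ratio of DoHH-2 to GM01953 was 0.70 (0.60–0.82) for H4C11 and 1.19 (1.08–1.32) for H4C12. Counts elsewhere in this pair could have come from either gene.

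A binding site is a position whose FDR in the authors' table is below 0.05, and a gene is called bound here if its binding sites hold over 20 counts. All 10 members were bound in both cell lines. Over all protein-coding genes with a MANE Select transcript and a count, 33.7% of 10695 were bound in DoHH-2 and 6.56% of 8447 in GM01953. The lowest member was H4C11 in DoHH-2, with 29 sites that held 1557 counts, and H4C1 in GM01953, with 6 sites that held 46. The highest was H4C8, whose 364 sites in DoHH-2 held 27077 counts and whose 82 sites in GM01953 held 1297.

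These site counts leave out part of 7 members, mostly of 4. The gene spans in the deposited table gave H4C1, H4C4, H4C12 and H4C13 the counts of their coding sequence and no more (2618, 6213, 5438 and 3899 in DoHH-2). Their 3′ UTR counts, 1686, 5304, 3196 and 4065, were left without a gene, where the table lists an FDR of 1 throughout. Positions without a gene also held 909 DoHH-2 counts of H4C2, 133 of H4C3 and 55 of H4C11. Of the members' counts, all positions without a gene held 13.9% in DoHH-2 and 19.2% in GM01953. The strongest position of H4C4, with 1321 counts, is among them. All counts described below therefore come from the exons, whatever gene the table names.

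eIF4B counts were concentrated at the end of these mRNAs. The 3′ UTRs are 14.1% of the bases, but their share of the counts was 46.9% (46.6–47.2) in DoHH-2 and 66.4% (65.2–67.6) in GM01953. Coding sequences are 78.4% of the bases and held 48.0% and 30.7%. The 5′ UTRs are 7.51% of the bases and held 5.10% in DoHH-2 and 2.96% in GM01953. Per base, the DoHH-2 counts were 102 in the 3′ UTR, 18.8 in the coding sequence and 20.9 in the 5′ UTR. The stop codon with 50 nt to each side made up 25.4% of the bases and took 69.1% of DoHH-2 counts and 83.2% of GM01953 counts. Around the start codon the same window held 11.9% and 6.08%.

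**Figure D2:**
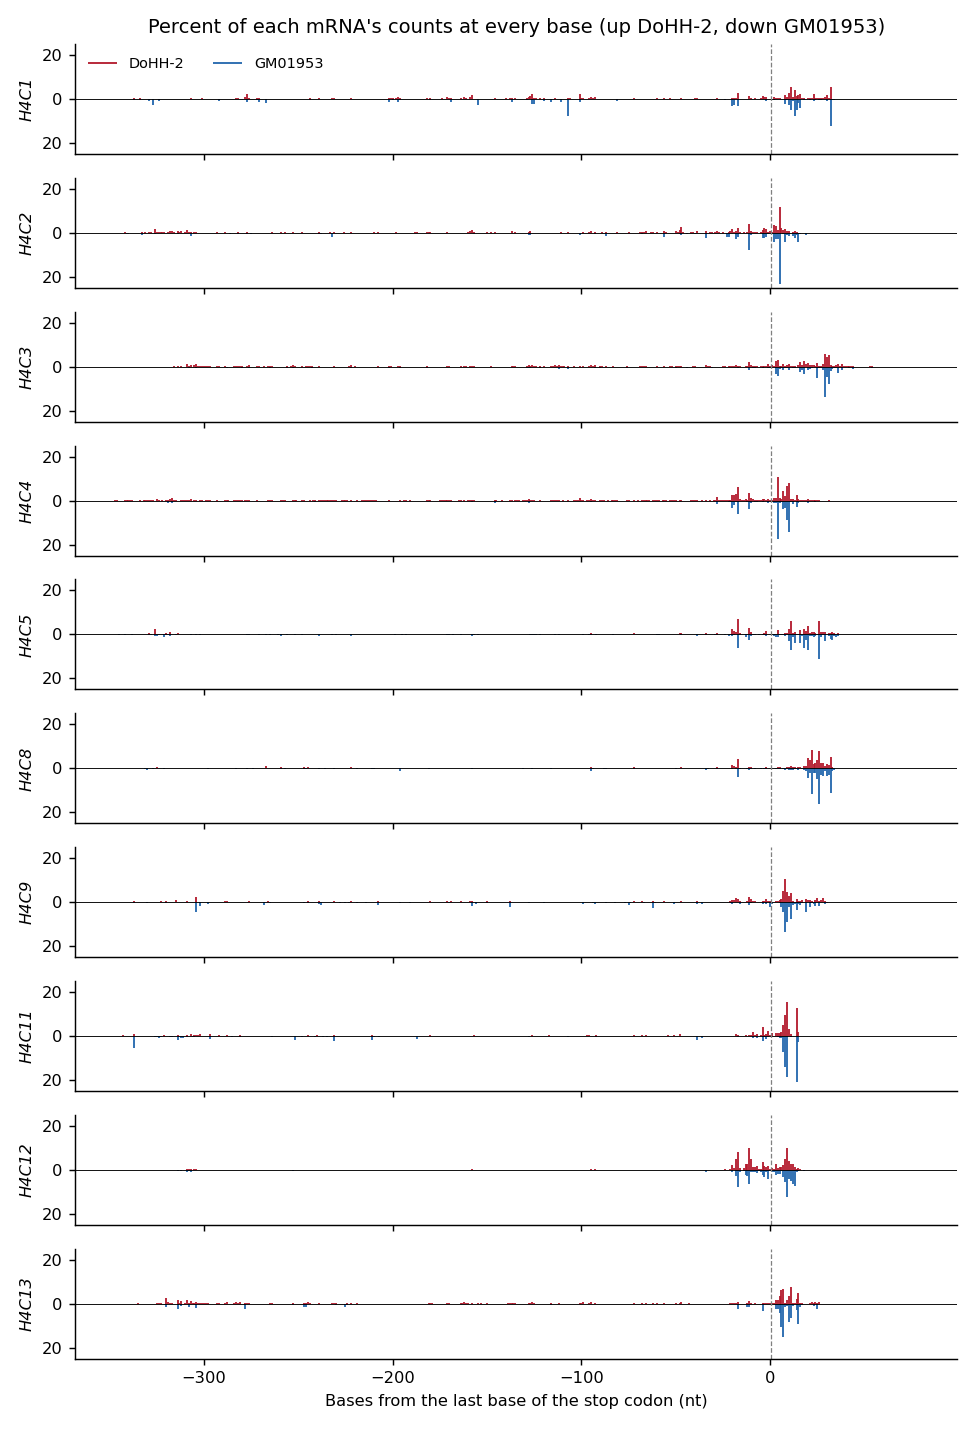
Percent of each mRNA's counts at every base, aligned at the last base of the stop codon (dashed line), with DoHH-2 drawn upward and GM01953 downward. The tallest line of each mRNA stands between −17 nt (H4C5, DoHH-2) and 32 nt (H4C1, both cell lines) from the stop codon's last base. The highest reaches 23.3% of the counts of H4C2 at 1 base in GM01953.

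The 3′ UTR held a larger share in GM01953 for each of the 10 mRNAs, and the 2 intervals were apart in all 10. In H4C8, 57.9% (57.3–58.5) of the DoHH-2 counts and 79.3% (77.0–81.4) of the GM01953 counts lay there. In H4C2 the shares were 29.0% (28.1–29.9) and 51.7% (47.2–56.2), the lowest of the members in DoHH-2. The difference ranged from 9.64 percentage points in H4C11 to 23.8 in H4C5. Part of the coding counts of H4C11 could have come from H4C12. Over the 246 genes with at least 50 counts in both cell lines, 39.4% had a larger 3′ UTR share in GM01953. The median difference was −3.97 points over these genes and 18.4 over the members.

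The same direction was seen in the other replication-dependent histone genes of chromosome 6, so it does not set H4 apart. The 3′ UTR share was larger in GM01953 for 4 of 4 H1 genes, 11 of 11 H2A genes, 12 of 12 H2B genes and 8 of 9 H3 genes that had 50 counts in both cell lines. With all these histone genes left out, 26% of 200 genes had a larger 3′ UTR share in GM01953.

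**Figure D3:**
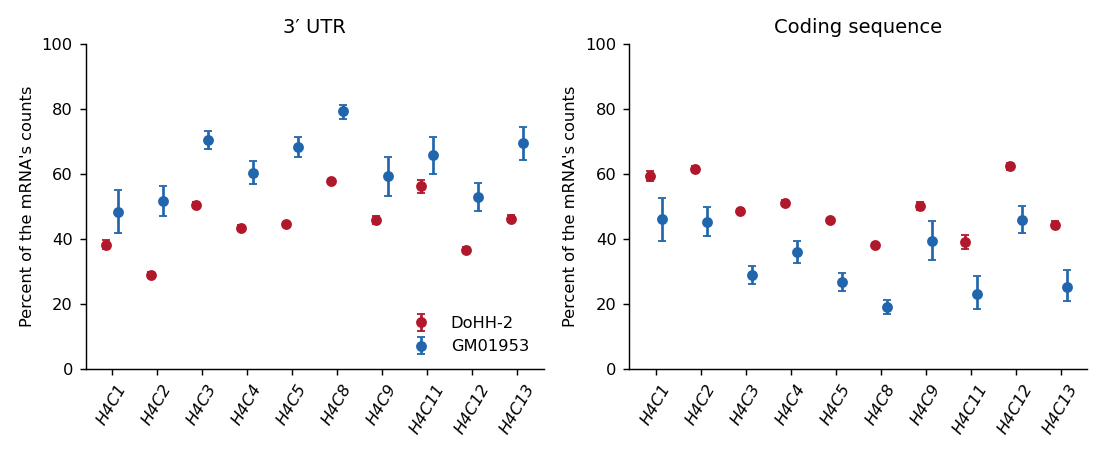
Percent of each mRNA's counts in the 3′ UTR (left) and the coding sequence (right) in DoHH-2 (red) and GM01953 (blue), with Wilson 95% intervals. GM01953 is higher in the 3′ UTR and lower in the coding sequence for all 10 mRNAs.

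Set against all counts of each cell line, the members' coding sequences differed more than their 3′ UTRs. Coding sequences held 28906 CPM in DoHH-2 against 11041 in GM01953, which is 2.62 times as much (2.50–2.74). The 3′ UTRs held 28227 and 23906 CPM, which is 1.18 times as much (1.14–1.22). By member, the coding ratio ran from 1.22 (0.94–1.62) in H4C11 to 4.01 (3.21–5.07) in H4C13, and 9 of the 10 intervals lay above 1. Part of the H4C11 coding counts could have come from H4C12, whose coding sequence is identical. The 3′ UTR ratio ran from 0.62 (0.53–0.73) in H4C11 to 1.52 (1.33–1.75) in H4C13. It was above 1 in 6 members, and the intervals of H4C2, H4C4 and H4C12 included 1.

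The 5′ UTR held few counts, and its share differed between members. In DoHH-2 it was 9.65% in H4C5, 9.50% in H4C2 and 9.42% in H4C13, but 0.79% in H4C3 and 0.97% in H4C12. In GM01953 these 5 members had 4.97%, 2.99%, 5.06%, 0.50% and 1.12%. The share was larger in GM01953 in 3 members, H4C11, H4C1 and H4C12, from 28, 12 and 6 counts there, and the intervals of H4C12 overlapped.

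Within the 3′ UTR the counts lay before the stem–loop. In DoHH-2, 57387 counts lay between the stop codon and the stem–loop and 2 in the stem–loop or after it, and in GM01953 these were 3997 and 0. The 0 of 6021 counts in GM01953 allows a share of up to 0.0498%, taken as 3 counts of the total. The 30 nt before the stem–loop are 7.54% of the bases, and their share was 38.3% (38.1–38.6) in DoHH-2 and 56.6% (55.4–57.9) in GM01953. The last 20 nt of the mRNAs held the same 2 counts in DoHH-2, and a cDNA that starts there would be shorter than 20 nt. Whether the length of the cDNAs sets this gap was not tested.

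The median distance of the 3′ UTR counts from the stem–loop was 22 nt in DoHH-2 and 21 nt in GM01953, both upstream. In H4C11 and H4C12, which have the shortest distance from stop codon to stem–loop, the median was 14 nt in both cell lines. In H4C8 it was 18 nt in DoHH-2 and 16 nt in GM01953. In H4C3, which has the longest 3′ UTR, it was 33 nt and 29 nt. H4C1, H4C4 and H4C5 had the same median, 26 nt, in both cell lines.

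H4C8 was cross-linked at the same 3 leading bases in both cell lines, each a U in its 3′ UTR. They lie 20, 16 and 10 nt before the stem–loop. In DoHH-2 they held 2295, 2152 and 1398 counts, which is 8.46% (8.14–8.80), 7.94% (7.62–8.26) and 5.16% (4.90–5.42) of its counts. In GM01953 they held 154, 215 and 151 of its 1342 counts. The order of the first pair differed between the cell lines.

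H4C3 had its highest base 29 nt before the stem–loop, with 1293 counts (5.90%, 5.60–6.22) in DoHH-2 and 137 (13.7%, 11.7–15.9) in GM01953. H4C2 had its highest base 20 nt before the stem–loop, with 1140 counts (11.9%, 11.3–12.6) in DoHH-2 and 109 (23.3%, 19.7–27.3) in GM01953. In H4C4 the highest base followed the stop codon by 4 nt and held 1321 counts (10.8%) in DoHH-2 and 130 (17.3%) in GM01953. In H4C9 it held 598 (10.4%) and 34 (13.4%). In each of these 4 mRNAs it was the same base in both cell lines. The largest share at 1 base was that of H4C2 in GM01953 and that of H4C11 in DoHH-2, with 347 counts (15.4%). The total of H4C11 includes counts that could have come from H4C12.

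H4C1 also had the same highest base in both, a G 8 nt before the stem–loop, with 234 counts (5.31%) in DoHH-2 and 26 (12.2%) in GM01953. In DoHH-2 a U 29 nt before the stem–loop was level with this G, at 233 counts (5.29%). The highest bases of H4C8, H4C11 and H4C13 differed by 4 or 5 nt between the cell lines. H4C5 and H4C12 differed by more. In H4C5 the highest base was a U in codon 99 in DoHH-2, with 1506 counts (6.94%), and a C 19 nt before the stem–loop in GM01953, with 97 counts (10.9%). That C was second in DoHH-2, with 1346 counts. In H4C12 it was a U in codon 101 in DoHH-2, with 888 counts (10.2%, 9.57–10.8), just ahead of a 3′ UTR base with 882, and the latter was first in GM01953 with 66.

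Nearly all GM01953 positions were also seen in DoHH-2. Of 790 bases with a count in GM01953, 773 were among the 3281 with a count in DoHH-2, where 82.5% of all bases of the members held at least 1 count. The Pearson correlation of counts per base between the cell lines ran from 0.73 in H4C1 to 0.96 in H4C4 (median 0.89, over 387 to 412 bases). The Spearman correlation, which uses ranks, was lower, from 0.40 in H4C2 to 0.64 in H4C3. Within the 3′ UTR the Pearson value ran from 0.89 in H4C1 to 0.98 in H4C4. Within the coding sequence it ran from 0.36 in H4C13 to 0.93 in H4C4. These are descriptions across bases, which share a sequence and its mappability and are not replicates.

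In the coding sequence the counts rose at its end. The last 10 codons with the stop codon took 40.1% (39.7–40.5) of DoHH-2 coding counts and 49.7% (47.4–52.0) of those in GM01953. Averaged over members, the phenylalanine codon 101, the tyrosine codon 99 and the leucine codon 98 led in DoHH-2, with 8.63%, 7.43% and 7.08% of the coding counts (codon 1 is the start codon). Codon 101 was among the 10 highest codons in all 10 members in DoHH-2. In GM01953 the tyrosine codon 99 led with 10.8%, followed by codon 101 with 9.17%. Codon 101 was among the 10 highest in 8 of the 10 members there, and codon 99 in 7 members in each cell line. The means include H4C11 and H4C12, whose coding counts could have come from either gene. Away from the end, the phenylalanine codon 62 had the highest mean in both cell lines, with 2.33% in DoHH-2 and 2.67% in GM01953. It was among the 10 highest codons in only 4 of the 10 members in each cell line. Codon 3 was close to it, with 2.16% and 2.43%.

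**Figure D4:**
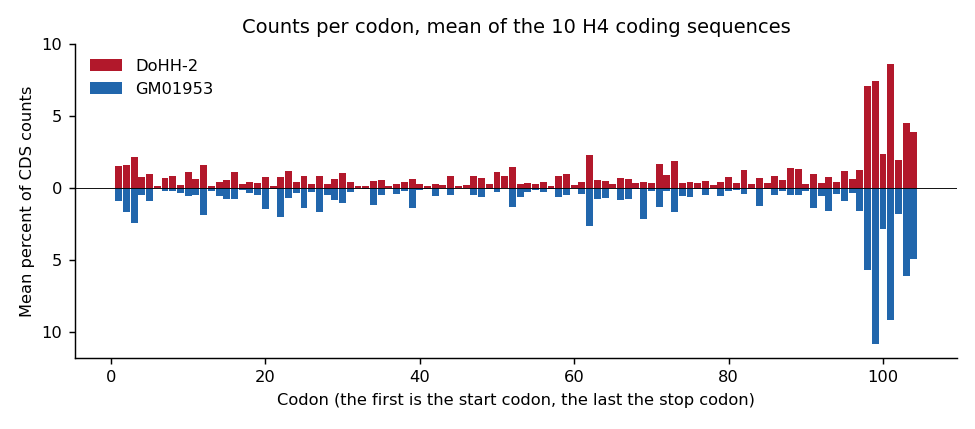
Mean percent of the coding counts at each codon over the 10 H4 coding sequences, DoHH-2 upward and GM01953 downward. Codons 98, 99, 101 and 103 and the stop codon stand above the rest in both cell lines, and codon 101 reaches 8.63% in DoHH-2.

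The last 30 coding bases are shown for 3 members, because they spell the same residues with different letters under this peak.
H4C5, chr6:26204924-26204953, plus strand: cagggacgcactctttacggcttcggcggc
H4C12, chr6:27831219-27831248, minus strand: cagggccgcaccctctacggtttcggtggt
H4C13, chr6:27873202-27873231, minus strand: cagggccgcaccctgtatggctttggcggc
For each member the other member with the most alike coding profile was named by Pearson correlation over 312 bases in DoHH-2. H4C5 and H4C8 were each other's nearest (r = 0.92), and H4C4 was nearest to H4C5 (0.92). H4C12 was nearest to H4C4 (0.82), H4C2 to H4C12 (0.70) and H4C9 to H4C12 (0.69). H4C3 and H4C13 were each other's nearest (0.66), and H4C1 was nearest to H4C4 (0.54). H4C11 was nearest to H4C12, with 0.39. Their coding sequences are identical, so part of the counts in this pair could have come from either gene. The value for this pair therefore does not compare binding to the 2 mRNAs, and other values with H4C12 carry the same limit. The median over 45 pairs was 0.51. Over the 80 bases before the stem–loop the highest correlation was 0.56, between H4C2 and H4C8, and the median was 0.11. These windows also hold coding bases that are out of register between members, so this median is not comparable with that of the collinear coding sequences.

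U was the most frequent cross-linked base. It made up 21.5% of the bases of the 10 mRNAs, and its share of counts was 47.4% (47.1–47.6) in DoHH-2 and 53.7% (52.5–55.0) in GM01953. C held 23.4% and 21.6% from 26.9% of the bases, and G held 21.6% and 17.0% from 29.9%. A was the least, with 7.61% in both cell lines from 21.8% of the bases. UV light itself favours cross-links at U, and the part of this in the result was not tested. The U share was lowest in H4C3 in DoHH-2 (34.3%) and highest in H4C8 (59.1%). In GM01953 it ran from 31.5% in H4C1 to 72.2% in H4C8.

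Counts at U differed with the base before it. A U that followed a U made up 6.01% of the bases and 26.0% of DoHH-2 counts, 4.32 times its share of bases. A U after C held 2.32 times its share, a U after A 0.95 times and a U after G 0.67 times. In GM01953 these were 5.18, 2.54, 0.98 and 0.63 times. These values pool all regions of the mRNAs. U made up 29.2% of the 3′ UTR bases before the stem–loop and 19.1% of the coding bases. The base before a U was therefore not separated from its place in the mRNA.

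As the coding sequences are collinear, the same codon position could be compared between members that have a U there and members that have a C. This was done in the 8 members other than H4C11 and H4C12, at the 46 positions with at least 2 members of each kind, with counts divided by the mean coding count of the mRNA. In DoHH-2 the U members were higher at 30 of the 46 positions, with a mean of 1.29 against 0.88. In GM01953 the U members were higher at 20, with means of 1.08 and 0.38 over all 46 positions. Another 20 were equal only because neither kind of member had a count there. No test was made of these counts.

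Outside chromosome 6, H4C16 on chromosome 12 had 3041 counts in DoHH-2 and 160 in GM01953, with 39.9% and 60.6% of them in the 3′ UTR. H4C14 and H4C15 on chromosome 1 had 10 and 1 counts in DoHH-2 but 73 and 110 in GM01953, despite the lower total there. No base of these 2 mRNAs is followed by 31 bases found once in the genome, so their counts depend on how reads with several matches were handled.

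The other chromosome 6 histone families had smaller shares. H2B held 4.25% of all DoHH-2 counts over 15 genes, H2A 3.97% over 12, H3 3.95% over 10 and H1 1.61% over 6. The ratio of DoHH-2 to GM01953 was 1.36 (1.33–1.40) for H2B, 1.42 (1.38–1.46) for H2A, 1.52 (1.48–1.57) for H3 and 1.09 (1.05–1.14) for H1. That of H4, 1.67 (1.63–1.72), was above all of these sums, and the intervals were apart. They cover counting error of the sums and not the spread between genes. Single H4 members ran from 0.73 in H4C11 to 2.29 in H4C13. H4C11, H4C4 (1.34) and H4C12 (1.34) lay below the sums of H2A, H2B and H3. The spread between genes was not compared between the families.

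Of 20 genes that make, process or degrade histone mRNAs, 19 had a MANE Select coding transcript, of which 7 were bound in DoHH-2 but 1 in GM01953. SLBP, the stem–loop binding protein, was bound in both, with 301 site counts in DoHH-2 and 24 in GM01953. The other bound mRNAs in DoHH-2 encode the cap-binding subunits NCBP2 (90 counts at sites) and NCBP1 (48), the cleavage factors CPSF2 (81) and CPSF3 (46), the decay helicase UPF1 (61) and LSM10 (36), a subunit of the U7 snRNP. The share of 7 in 19 is near the 33.7% of all genes in DoHH-2, and 1 in 19 is near the 6.56% in GM01953. The whole list held 1993 counts in DoHH-2, fewer than H4C11 alone.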

How the data were processed

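Per the paper's methods, the authors removed duplicate reads with BBMap, demultiplexed with Je, mapped to GRCh38 with HiSat2, pooled the replicates of each cell line and called cross-link positions and peaks with iCount. Versions are not given in the sources used here. The deposited values are whole, unnormalized cDNA counts per position, and a false discovery rate (FDR) per position as given by the authors. A further column, the count summed around each position, was not used. The tables do not say from where positions count, and 1 was added. In H4C1, H4C4, H4C12 and H4C13, whose deposited gene span is the coding sequence, this placed 0 of 1282 DoHH-2 positions on the wrong side of its edges, against 8 with 0 added and 7 with 2 added. A position listed for several genes was counted once. Depth was 2033156 counts in DoHH-2 and 167197 in GM01953.

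Exons, coding sequences and stop codons came from the MANE Select transcripts of GENCODE release 44, and sequence from hg38 (GRCh38). Wilson 95% intervals for shares and exact conditional binomial intervals for ratios of shares were computed with scipy 1.17.1. A base counted as unique when the 31 bases downstream occurred once on either strand of the genome without alternate contigs. The stem–loop was found by its 6-base stem and 4-base loop. With 1 pooled table a cell line there was no test between cell lines. The counting was checked on simulated positions. The named genes are all members, the 3 H4 genes outside chromosome 6, 20 factors of histone mRNA metabolism, and the other histone families as sums. Members and lists were chosen with earlier results of these data known. Protein sequences were not used here.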

Additional observations from a re-analysis of the deposited data

How the results depend on the processing

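Of 39 alternative values, 7 stayed within the counting interval or count range of the result reported, 31 moved and 1 reversed. All 10 members stayed bound in both cell lines over 50 counts or at an FDR below 0.01, except H4C1 in GM01953, which had 50 counts or fewer and left 9 of 10. Counting each position once, whatever its count, lowered the share of H4 to 0.278% in DoHH-2 and 1.01% in GM01953 and reversed their ratio to 0.28. Of the members' bases, 82.5% held a count in DoHH-2 and 19.9% in GM01953. Whether this sets the reversal was not tested. Counting positions once also lowered the stop codon share to 23.9% and 49.9% and the 3′ UTR share to 9.39% and 29.1%. The U share fell to 22.4% and 31.6%, and the median distance to the stem–loop was −20 nt in DoHH-2. With positions of an FDR below 0.05 only, the share was 9.85% in DoHH-2 and 4.33% in GM01953, the ratio 2.28 and the stop codon share 78.1% and 93.6%. Unique words only gave shares of 5.84% and 3.49%, and 48.3% and 68.5% in the 3′ UTR. The authors' gene assignment gave 5.19% and 2.91%. Without H4C8 the 3′ UTR held 43.8% and 62.7% and the median distance was −25 nt in both. With 25 nt around the stop codon the share was 52.8% and 60.6%. At 1 base downstream U held 44.8% and 49.0%, and with no 1 added to the positions, an alternative chosen after seeing the data, 46.1% and 48.4%. With exons of other genes as denominator the ratio was 1.55. No paired analysis was possible because each cell line is 1 pooled table, and for the same reason no replicate could be left out.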
